A study of Mus musculus with 8 samples.

Results

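A set of 745 regions away from gene ends carried a phospho-CREB1 peak in both libraries of control muscle and in C26 replicate 1, and had no peak in C26 replicate 2. They were found by merging the peaks of the 4 deposited lists wherever these overlapped by at least 1 bp, which gave 17607 regions, and by keeping the regions with that pattern of peaks whose summits all lay more than 1000 bp from both ends of every protein-coding gene span. They made up 8.23% of the 9052 merged regions away from gene ends. The regions were chosen by the measured presence or absence of a peak in each library, so their presence, fold enrichment and rank in the lists are given below as a description with no test. The pattern splits the pair of C26 libraries rather than the CTRL group from the C26 group. A missing peak means only that nothing there reached the authors' q threshold in that library, and binding below it would not be listed.

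Phosphorylated CREB1 was profiled in mouse skeletal muscle by chromatin immunoprecipitation and sequencing (ChIP-seq), with 2 libraries of the CTRL group, 2 of the C26 group and 4 inputs. C26 is a mouse colon carcinoma line whose tumors cause muscle wasting, and per the labels its cells were placed under the skin of male Balb/c mice at 2 months of age, while the CTRL mice are described only as controls. The labels leave several points of the model unsettled. The tissue is the gastrocnemius in one place and the quadriceps in another, the antibody is given as CREB or phospho-CREB1 in the protocol, rolipram (3 mg/kg, an inhibitor of phosphodiesterase 4) or vehicle is described for C26 mice from day 4 without saying which these mice received, and nothing says whether the libraries came from separate animals. The labels place no genetic change in either group.

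CREB1 is a transcription factor that binds the cAMP response element, a palindrome whose arms can also be bound alone, and it is phosphorylated by protein kinase A when cAMP rises. Phosphorylation lets it recruit co-activators, and in muscle this pathway is known for metabolic and immediate early genes. Known CREB1 sites lie mostly close to transcription starts, and sites elsewhere are commonly enhancers or starts of alternative transcripts.

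The sequences that bear on these regions are those of the transcript starts they sit on. The 8 strongest regions at a protein-coding transcript start (strength is defined below) are printed from 250 bases before the start to 25 bases from the start onward, 5′ to 3′ on the gene's strand, from RefSeq promoters on GRCm38.p6. They were chosen for print after the values were known. Capitals mark the arm of the cAMP response element, TGACG, or its reverse complement CGTCA, and the run TGACGTCA in Skp1 is the full element, which holds both.
Skp1, chr11:52231745-52232019, plus strand: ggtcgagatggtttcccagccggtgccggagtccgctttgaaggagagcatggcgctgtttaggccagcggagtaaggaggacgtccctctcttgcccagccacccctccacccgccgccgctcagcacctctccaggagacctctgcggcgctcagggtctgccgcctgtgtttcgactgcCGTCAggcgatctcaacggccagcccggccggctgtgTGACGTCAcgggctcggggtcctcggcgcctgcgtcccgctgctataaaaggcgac
Dgcr6, chr16:18066153-18066427, plus strand: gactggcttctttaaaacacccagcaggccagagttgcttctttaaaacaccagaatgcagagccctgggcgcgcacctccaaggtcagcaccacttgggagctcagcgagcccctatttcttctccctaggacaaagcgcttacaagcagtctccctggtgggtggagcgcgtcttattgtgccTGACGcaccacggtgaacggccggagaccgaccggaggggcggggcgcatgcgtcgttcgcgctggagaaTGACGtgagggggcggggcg
Tmem248, chr5:130222085-130222359, plus strand: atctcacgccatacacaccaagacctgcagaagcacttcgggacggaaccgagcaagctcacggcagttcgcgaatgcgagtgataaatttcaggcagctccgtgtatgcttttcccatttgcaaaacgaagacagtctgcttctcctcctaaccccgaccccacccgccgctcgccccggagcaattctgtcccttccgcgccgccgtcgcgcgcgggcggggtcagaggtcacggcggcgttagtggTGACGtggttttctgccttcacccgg
Arih2, chr9:108649384-108649658, minus strand: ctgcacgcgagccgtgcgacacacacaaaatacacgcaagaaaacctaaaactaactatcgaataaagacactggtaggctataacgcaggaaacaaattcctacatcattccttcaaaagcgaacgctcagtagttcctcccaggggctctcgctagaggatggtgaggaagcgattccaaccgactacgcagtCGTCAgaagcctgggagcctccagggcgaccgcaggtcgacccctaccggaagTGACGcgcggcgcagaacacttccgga
Zfp759, chr13:67127978-67128252, plus strand: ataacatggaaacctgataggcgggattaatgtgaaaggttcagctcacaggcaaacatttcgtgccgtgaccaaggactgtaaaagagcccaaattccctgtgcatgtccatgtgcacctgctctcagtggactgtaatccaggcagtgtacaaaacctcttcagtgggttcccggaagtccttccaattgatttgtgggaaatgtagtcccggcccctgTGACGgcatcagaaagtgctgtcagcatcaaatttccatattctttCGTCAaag
Ipo5, chr14:120910944-120911218, plus strand: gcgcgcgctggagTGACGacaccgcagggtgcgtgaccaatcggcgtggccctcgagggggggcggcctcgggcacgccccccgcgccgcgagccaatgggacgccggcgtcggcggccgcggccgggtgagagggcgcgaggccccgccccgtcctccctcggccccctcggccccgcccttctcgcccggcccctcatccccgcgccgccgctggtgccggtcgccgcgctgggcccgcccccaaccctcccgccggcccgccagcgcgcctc
Pdpk1, chr17:24141570-24141844, minus strand: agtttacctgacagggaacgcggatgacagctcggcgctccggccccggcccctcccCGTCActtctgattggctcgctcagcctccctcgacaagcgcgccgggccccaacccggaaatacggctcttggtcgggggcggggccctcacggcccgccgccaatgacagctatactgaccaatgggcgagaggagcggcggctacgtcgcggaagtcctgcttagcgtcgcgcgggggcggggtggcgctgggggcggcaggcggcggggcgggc
Rfx5, chr3:94953858-94954132, plus strand: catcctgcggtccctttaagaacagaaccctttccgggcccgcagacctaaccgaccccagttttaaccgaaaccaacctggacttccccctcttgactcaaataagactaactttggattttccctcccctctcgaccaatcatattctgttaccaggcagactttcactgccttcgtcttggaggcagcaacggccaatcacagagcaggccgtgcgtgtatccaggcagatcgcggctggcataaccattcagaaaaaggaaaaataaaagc
Skp1 alone of the 8 held the full element, and the windows of Dgcr6, Tmem248, Arih2, Zfp759, Ipo5 and Pdpk1 held 1 or 2 single arms. The window of Rfx5 held no arm, which says only that these letters are not in it.

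The full element stood at the transcript start of 5 other regions of the set, shown with 10 bases on either side because these are the closest matches to the known CREB1 site.
Abcg2, chr6:58640499-58640526, plus strand: cggcgcgagcTGACGTCAcggcggtcgg
Slc25a25, chr2:32424199-32424226, minus strand: ctgcaagcagTGACGTCAgtcctgatct
9330159F19Rik, chr10:29211626-29211653, plus strand: tccaagtcccTGACGTCAtagtagccca
Gemin6, chr17:80224423-80224450, plus strand: gggaaggaaaTGACGTCAggagcaaagc
Zfp595, chr13:67332571-67332598, minus strand: cctaccacgtTGACGTCAccaaaaggct
These starts belong to Abcg2, an efflux transporter, Slc25a25, a mitochondrial ATP-Mg and phosphate carrier, the RIKEN gene 9330159F19Rik, Gemin6, a component of the complex that assembles splicing particles, and Zfp595, a zinc finger gene. The element of Slc25a25 (chr2:32424209-32424216) lay in a region with 10.7-fold enrichment over input in CTRL replicate 1, 11.5-fold in CTRL replicate 2 and 6.96-fold in C26 replicate 1. That of Abcg2 (chr6:58640509-58640516) lay in a region with 17.8-, 12.5- and 7.59-fold in the same order. Its summit was 13 bp before the transcript start.

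Peak strength in these regions was moderate. The fold enrichment, the authors' value at the summit on each library's own scale, had a median of 6.63 (lowest 2.53, highest 29.9) in CTRL replicate 1, 8.98 (2.26 to 51.5) in CTRL replicate 2 and 5.01 (2.19 to 19.0) in C26 replicate 1. Because each library was scaled against its own input, strength is given from here on as the percentile by −log10 q within a library's own list, where 100 is the strongest peak. The median percentile was 52.6 in CTRL replicate 1, 64.1 in CTRL replicate 2 and 38.2 in C26 replicate 1. Distal regions with a peak in all 4 libraries stood higher in the same lists (73.4, 79.0 and 63.4, n = 667), and those with peaks in the CTRL libraries alone stood lower in both (28.9 and 41.5, n = 1261). The lowest of a region's 3 percentiles came from C26 replicate 1 in 471 of the 745 (63.2%), and 188 (25.2%) were in the upper part of all 3 lists, at the percentile of 50 or above. The lists differ in length, so percentiles of different libraries are not on a common scale. Distal regions of all 4 libraries also had the lowest of these 3 medians in C26 replicate 1.

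**Figure D1:**
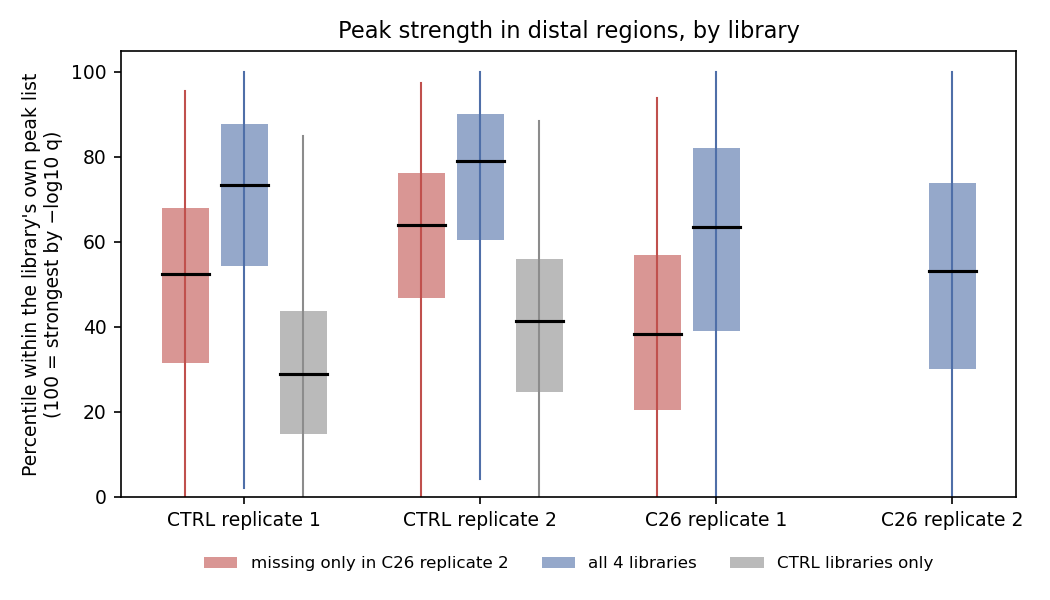
Percentile of each region's strongest peak within the library's own list (y axis), for distal regions missing only in C26 replicate 2 (n = 745), present in all 4 libraries (n = 667) and present in the CTRL libraries alone (n = 1261). Boxes span the quartiles, black lines are medians and thin lines reach the lowest and highest values; the 745 regions lie between the other groups in both CTRL lists, with medians of 52.6 and 64.1.

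The 3 libraries had their summits close together in these regions, which the joining of overlapping peaks partly sets in advance. Of the 745, 717 (96.2%) held exactly 1 peak of each library. The summits of the 3 libraries spanned a median of 78 bp, against 61 bp for the same libraries in distal regions of all 4. In 649 of the 745 they lay within 250 bp of each other. The regions had a median width of 694 bp, against 825 bp for distal regions in all 4 libraries and 527 bp for those in the CTRL libraries alone. By the rule no peak of C26 replicate 2 overlapped these regions, and its list is short (4051 peaks), which partly sets the gap to it. The nearest such peak lay a median of 64399 bp from the region, within 10000 bp in 126 and within 500 bp in 7. This gap was not measured for other regions.

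Missing C26 replicate 2 was as frequent a pattern as presence in all libraries. Of all 5902 regions with a peak in the other 3 libraries, 49.5% had none in C26 replicate 2. The share was 52.8% (745 of 1412) away from gene ends and 48.5% (2179 of 4490) near them. By comparison, 170 distal regions were missing only in C26 replicate 1, 70 only in CTRL replicate 1 and 34 only in CTRL replicate 2. C26 replicate 2 has the shortest list, with 4051 peaks against 7482, 10835 and 14975 in C26 replicate 1, CTRL replicate 1 and CTRL replicate 2. With every list cut to its 4051 strongest peaks, 128 of 457 distal regions (28.0%) were missing only in C26 replicate 2. Read depth is unknown, and its part in the missing peaks was not tested. In whole muscle, fewer cells of a type and less binding per cell cannot be told apart.

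The missing share fell with the strength of the peak in C26 replicate 1. Away from gene ends it was 72.3% (95% Wilson interval 66.5 to 77.5) for peaks in the weakest 20% of that list and 10.9% (7.37 to 15.8) for the strongest 20%, where it counted 23 of 211 regions. Near gene ends the shares in the same parts of the list were 83.6% (80.2 to 86.6) and 9.87% (8.35 to 11.6). The intervals cover counting error only, and these shares describe the presence that chose the regions.

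**Figure D2:**
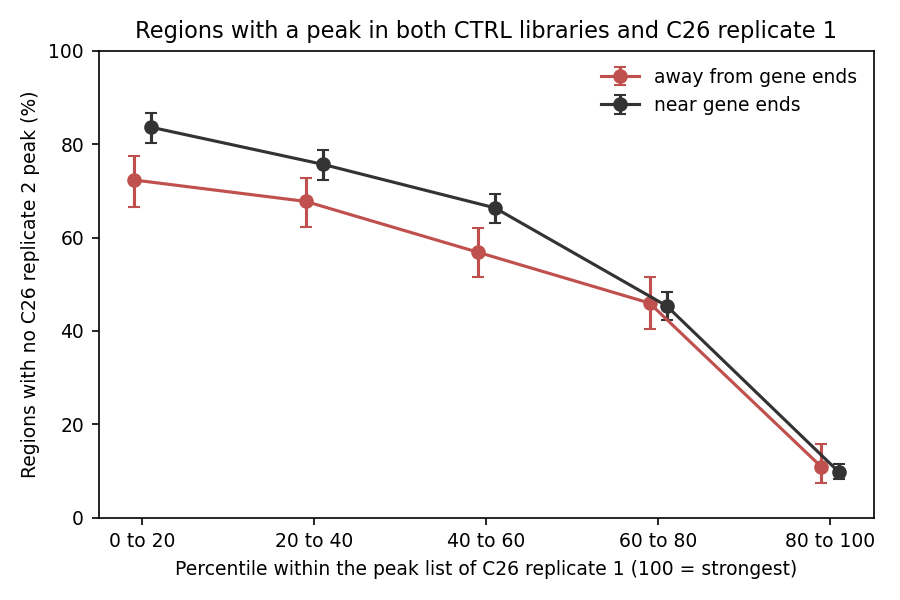
Share of regions with no C26 replicate 2 peak (y axis, percent) by the percentile of their peak in C26 replicate 1 (x axis, in steps of 20), among regions with a peak in the other 3 libraries, with 95% Wilson intervals. Away from gene ends (red) it goes from 72.3% to 10.9%, and near gene ends (black) from 83.6% to 9.87%.

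The word distal describes distance from the ends of whole gene spans and does not mean that these regions were all enhancers. By the summit of CTRL replicate 2, 508 of the 745 (68.2%, 64.8 to 71.4) lay inside a protein-coding gene span, against 63.7% (60.0 to 67.3) of distal regions in all 4 libraries and 63.9% (61.2 to 66.5) of those in the CTRL libraries alone. Of the 718 regions on chromosomes with RefSeq promoter sequences, 180 (25.1%, 22.0 to 28.4) had that summit within 250 bp of a protein-coding transcript start, which for these genes is a start inside the gene span. The share was 23.0% (19.9 to 26.3) in distal regions of all 4 libraries and 13.3% (11.5 to 15.3) in those of the CTRL libraries alone. Of the 745, the others fell at the start of a long non-coding RNA (31), at a small RNA gene (20), elsewhere in a gene span (311) or between genes (203). These counts include the 27 regions on a chromosome without promoter sequences, whose distance to transcript starts was not checked. The share missing in C26 replicate 2 was 54.5% at coding starts, 54.1% elsewhere in a gene span and 50.5% between genes. It was 43.7% (31 of 71) at long non-coding RNA starts and 58.8% (20 of 34) at small RNA genes. Exons and introns were not separated here.

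At the coding starts the summits were close to the start itself. They lay upstream of it in 116 of 180 regions, within 50 bp of it in 79 (43.9%), and at a median of -30.5 bp. Regions at coding starts had a median percentile of 60.5 in CTRL replicate 1, 71.5 in CTRL replicate 2 and 44.0 in C26 replicate 1. The regions between genes stood lower in all 3 lists, at 48.3, 60.6 and 33.1.

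**Figure D3:**
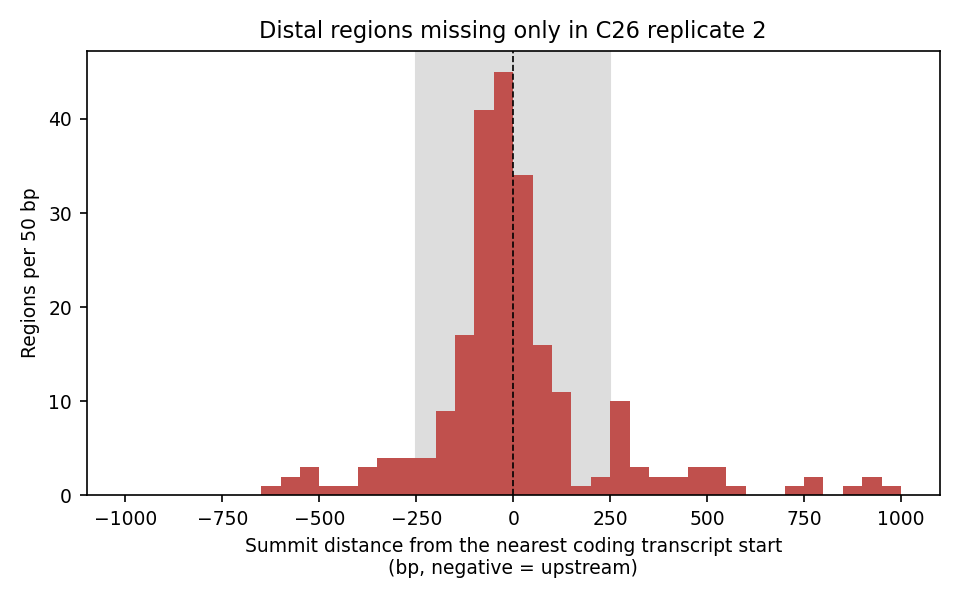
Distance of the CTRL replicate 2 summit from the nearest protein-coding transcript start (x axis, bp, negative upstream) for distal regions missing only in C26 replicate 2, as regions per 50 bp (y axis). The shaded band is the 250 bp window on either side of the start, which holds 180 regions; 79 of them lie within 50 bp of the start.

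The arm of the cAMP response element followed the pattern of presence over the libraries, and the rule had not used sequence. TGACG on either strand, the full element included, stood in the 300-base promoter window of 82 of the 180 coding starts (45.6%, 38.4 to 52.8). It stood in 100 of 150 (66.7%, 58.8 to 73.7) for distal regions in all 4 libraries and in 40 of 162 (24.7%, 18.7 to 31.9) for those in the CTRL libraries alone. None of these 3 intervals overlapped another. With every list cut to the shortest, the set had 58.8% (45.2 to 71.2) and regions of all 4 libraries 76.8% (68.2 to 83.6). The set was again the lower, those intervals overlap, and the difference was not tested. Among 2941 coding starts away from gene ends with no summit of any library within 250 bp, 14.7% held an arm, and 20.8% of all 32851 RefSeq promoters did. The full element TGACGTCA stood at 6 of the 180 starts (3.33%, 1.54 to 7.08), at 18 of 150 (12.0%, 7.73 to 18.2) in all 4 libraries, at 2 of 162 (1.23%, 0.339 to 4.39) in the CTRL libraries alone and in 1.79% of all promoters. In the 82 windows with an arm, the middle base of the nearest arm was a median of 35.5 bp from the summit, and within 50 bp in 48.

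Other promoter motifs differed less between the 3 patterns. The GC box GGGCGG, bound by factors of the Sp family, stood at 75% (68.2 to 80.8) of the 180 starts, at 67.3% (59.5 to 74.3) in all 4 libraries and at 71.0% (63.6 to 77.4) in the CTRL libraries alone, with 35.7% of all promoters. The ETS core CCGGAAG stood at 18.9%, 20.7% and 21.0% in the same order, with 8.86% of all promoters. CCAAT, the box bound by NF-Y, stood at 40% (33.1 to 47.3), 46.7% (38.9 to 54.6) and 35.8% (28.8 to 43.4), with 37.4% of all promoters. The core GCGCATGCG of NRF1, a regulator of nuclear genes for mitochondria, stood at 2.78% (1.19 to 6.34), 4.67% (2.28 to 9.32) and 1.85% (0.632 to 5.30), with 1.75% of all promoters. CCAAT and the NRF1 core thus stood in the same order as the arm, with overlapping intervals. Each was searched on both strands, and none of them contains TGACG. Among the 2941 coding starts with no summit of any library within 250 bp, the GC box stood at 29.5% and the ETS core at 3.60%. CCAAT stood there at 34.5% and the NRF1 core at 0.612%. The set thus stood above those starts in the GC box and the ETS core as well as in the arm. The 180 windows had a median GC content of 64.3% and 25 CpG sites, near the 63.0% and 24 sites of all 4 libraries and the 63.5% and 23 sites of the CTRL libraries alone, and above the 52.7% and 7 sites over all promoters. The 2941 starts with no summit had medians of 52.3% and 6 sites. TGACG itself holds a CpG, and the part of CpG content in the arm shares was not tested.

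**Figure D4:**
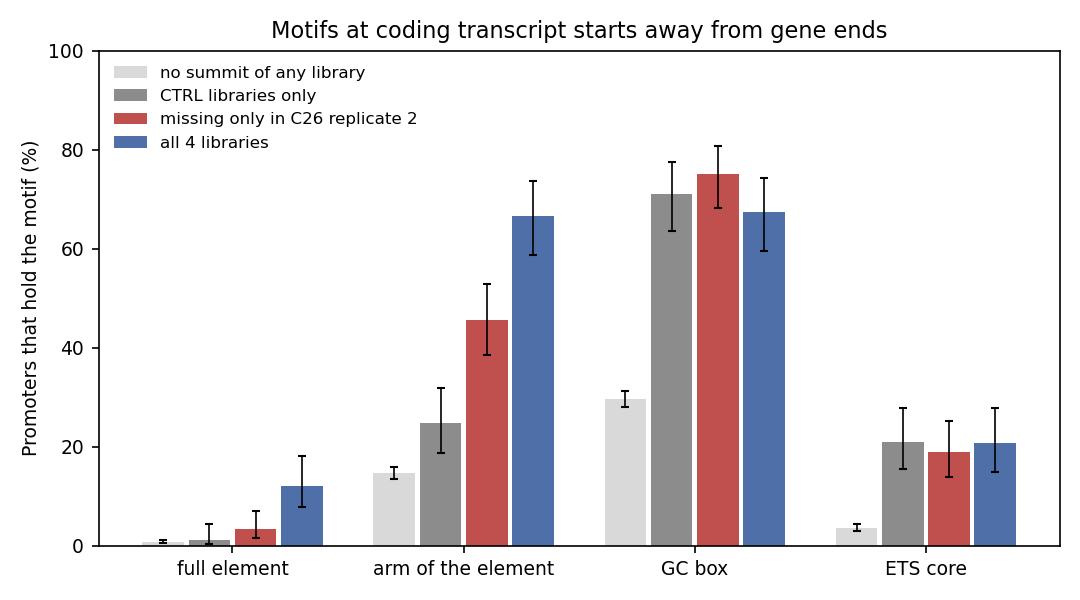
Share of protein-coding promoters away from gene ends that hold each motif (y axis, percent, with 95% Wilson intervals), for starts with no summit of any library and starts in distal regions of 3 patterns of presence. The arm of the cAMP response element goes from 14.7% through 24.7% and 45.6% to 66.7%, while the GC box and the ETS core have overlapping intervals in the 3 occupied groups. Starts with no summit held the GC box at 29.5% and the ETS core at 3.60%.

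The arm was more frequent at stronger peaks of C26 replicate 1, but not at stronger peaks of every library. In the set, starts with an arm (82) and without (98) had median percentiles of 60.3 and 60.5 in CTRL replicate 1. In CTRL replicate 2 these were 73.6 and 69.5, and in C26 replicate 1 they were 48.4 and 42.3. Among starts whose C26 replicate 1 peak was in the lower part of its list, at or under the percentile of 40, an arm stood at 31 of 77 (40.3%, 30.0 to 51.4) in the set and at 6 of 22 (27.3%, 13.2 to 48.2) in regions of all 4 libraries. Between the percentiles of 40 and 80 the counts were 42 of 92 (45.7%, 35.9 to 55.8) and 31 of 57 (54.4%, 41.6 to 66.6). Above 80 they were 9 of 11 (81.8%, 52.3 to 94.9) and 63 of 71 (88.7%, 79.3 to 94.2). The intervals of the set and of regions of all 4 libraries overlapped at each level of strength in C26 replicate 1. Overlap is not a test, and at these counts it does not show that the shares are alike. By strength in CTRL replicate 2, an arm stood between the percentiles of 40 and 80 at 51 of 120 (42.5%, 34.0 to 51.4) in the set and at 25 of 104 (24.04%, 16.8 to 33.1) in the CTRL libraries alone, and above 80 at 27 of 49 (55.1%, 41.3 to 68.1) and 6 of 10 (60%, 31.3 to 83.2). At or under 40 the counts were 4 of 11 (36.4%, 15.2 to 64.6) and 9 of 48 (18.8%, 10.2 to 31.9). The intervals were narrowly apart at the middle level (34.0 against 33.1) and overlapped at the lower and upper ones. In regions of all 4 libraries an arm stood at 21 of 42 (50%, 35.5 to 64.5) at the middle level. Above 80 it stood at 79 of 107 (73.8%, 64.8 to 81.2), and both intervals overlapped those of the set. At starts of long non-coding RNAs an arm stood at 20 of 45 (44.4%, 30.9 to 58.8) in the set, at 30 of 51 (58.8%) in all 4 libraries, at 16 of 57 (28.1%) in the CTRL libraries alone and in 15.7% of all such promoters. Of these regions, 31 of 45, 40 of 51 and 42 of 57 were not also at a coding start. The rest were already counted at coding starts, so these shares are not separate from those above.

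The 24 strongest regions, ranked by the lowest of their 3 percentiles, are named by the gene whose span holds the CTRL replicate 2 summit or, where none does, by the nearest gene end. Of these, 19 lay in a gene span and 11 at a coding transcript start, 9 of them with an arm. The strongest lay in the span of the predicted gene Gm20517, 1090 bp before a start of Usp49, which encodes a deubiquitinase (chr17:47628984-47630112). It had 29.9-fold enrichment in CTRL replicate 1, 51.5-fold in CTRL replicate 2 and 19.0-fold in C26 replicate 1. These values put it at the percentiles of 95.5, 97.4 and 94.0, and the nearest C26 replicate 2 peak was 17162 bp away. The next, inside Kmt2d, which encodes a histone methyltransferase of enhancers (chr15:98871788-98872609), had 21.7-, 21.5- and 14.0-fold in the same order.

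The regions with printed promoters were among them. Skp1 encodes the adaptor of SCF ubiquitin ligases, and its region (chr11:52231551-52232307) had 16.7-, 30.0- and 8.51-fold enrichment in CTRL replicate 1, CTRL replicate 2 and C26 replicate 1, at the percentiles of 91.5, 94.2 and 84.6. The summit lay 79 bp before the start and 13 bp from the nearest arm. At Dgcr6, a gene of the region deleted in DiGeorge syndrome, the values were 22.7-, 23.0- and 11.8-fold (chr16:18065997-18066719). At Rfx5, which encodes a subunit of the factor that activates MHC class II genes and whose printed window held no arm, they were 21.3-, 25.8- and 11.3-fold (chr3:94953726-94954602). In all 3 genes C26 replicate 1 gave the lowest percentile. Arih2, which encodes an E3 ubiquitin ligase, had 16.2-, 20.9- and 9.62-fold, and Ipo5, which encodes a nuclear import receptor, had 18.2-, 22.1- and 11.3-fold.

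A region 8802 bp from the nearer end of the immediate early gene Fos, between genes (chr12:85485768-85486635), had 25.2-fold enrichment in CTRL replicate 1, 24.9-fold in CTRL replicate 2 and 8.14-fold in C26 replicate 1. It lay near the top of both CTRL lists, at the percentiles of 94.8 and 93.9, and at 81.9 in C26 replicate 1. The nearest C26 replicate 2 peak was 11762 bp away. Others of the 24 lay at or near Tmem248, Adam11, Rpn1, Gtf2ird2, Pdpk1, Zfp759, Hnrnpu, Osgin2, Bahcc1, Cnot8, Stk25, Maoa, 1810010H24Rik, Cep70 and Jarid2. C26 replicate 1 gave the lowest percentile in 18 of the 24. At Rpn1, Hnrnpu, Bahcc1, Cnot8, Stk25 and 1810010H24Rik it was CTRL replicate 1 that did so. The lists compared here differ in length, as said above.

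**Figure D5:**
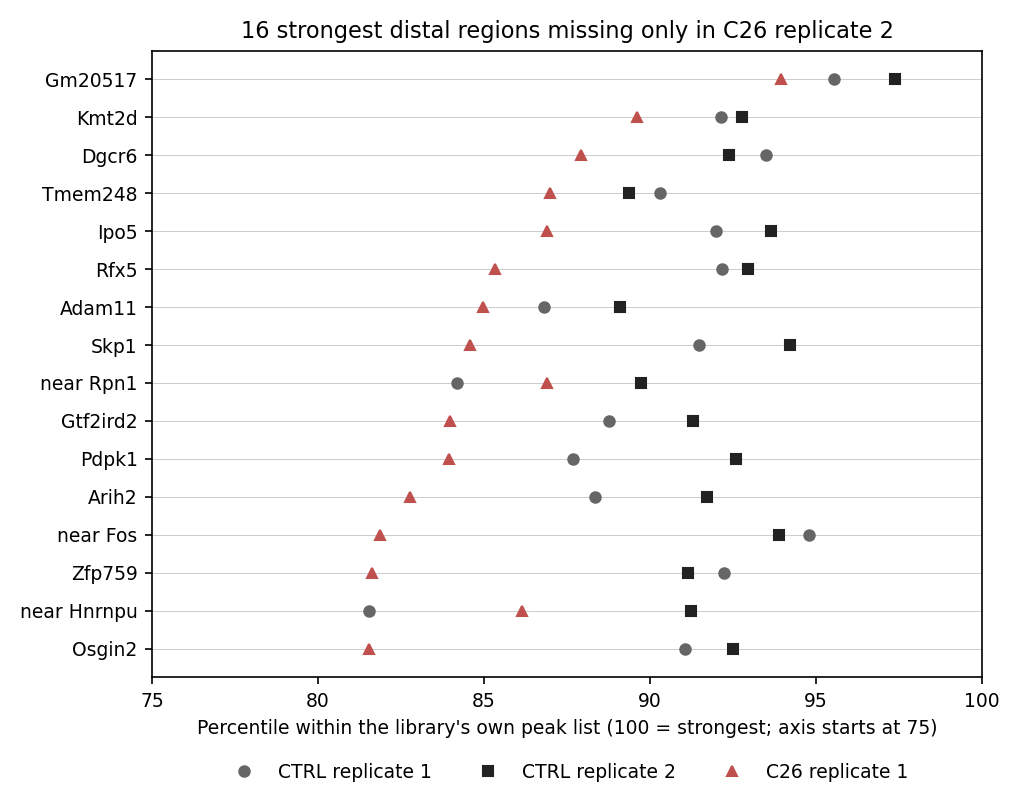
Percentile within each library's own peak list (x axis, from 75 to 100, where 100 is the strongest) for the 16 strongest distal regions missing only in C26 replicate 2, each row 1 region. C26 replicate 1 (triangles) is the lowest of the 3 libraries in 14 of the 16 regions. The lists differ in length, so their percentiles are not on a common scale.

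The weakest regions barely passed the threshold in a list. One near Rbm43 stood at the percentile of 0.0334 in CTRL replicate 2, one near Med13l at 0.0334 in C26 replicate 1, and one inside Senp7 at 0.0738 in CTRL replicate 1. In all, 85 of the 745 (11.4%) were in the weakest 10% of the C26 replicate 1 list. At the distance limit, the nearest regions kept lay 1006 bp from Sh2d6, 1017 bp from Zswim8 and 1019 bp from Tfap4, with 3.39-, 4.78- and 4.69-fold in C26 replicate 1. The nearest ones left out lay 995 bp from Sav1, 985 bp from Zbtb2 and 976 bp from Spg11, with 6.85-, 4.48- and 3.06-fold.

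The summits fell in the spans of 486 of 21887 protein-coding genes (2.22%), whose median span of 53813 bp exceeded the 17169 bp over all genes. A gene-end peak in C26 replicate 2 was present at 54 of the 486 (11.1%, with 14.0% over all genes), and 278 (57.2%, with 57.7% over all genes) had no gene-end peak in any library. Of 600 genes in 19 lists of muscle, metabolic and signaling genes and cell type markers, 38 (6.33%) held a region of the set, and the 600 listed genes had a median span of 26434.5 bp. Longer genes offer more room for a region, and the part of gene length in these shares was not tested.

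Genes of cAMP signaling held several of the regions, in 6 of 45 listed genes (13.3%, median span 88215 bp), with 2.22% over all genes. Gnas encodes the G protein subunit that activates adenylyl cyclase, and its region (chr2:174329656-174331349) had 9.68-fold enrichment in CTRL replicate 1, 10.3-fold in CTRL replicate 2 and 4.45-fold in C26 replicate 1. The cyclase gene Adcy9 had a region whose summit lay 19 bp before an internal start (chr16:4419842-4420864), with 14.5-, 16.3- and 4.10-fold, an arm 3 bp from the summit, and percentiles of 85.2, 86.7 and 38.2. C26 replicate 1 stood lower in its own list than both CTRL libraries in theirs. The cyclase gene Adcy2 held 2 regions with percentiles between 69.0 and 86.2. Among phosphodiesterases, which break cAMP down, Pde4a had a region 60 bp before an internal start (chr9:21183887-21184873; 5.08-, 6.21- and 6.09-fold), Pde4c had 1 and Pde4d had 3. The Pde4d regions lie in a span of 1301793 bp, and the strongest (chr13:109752393-109753093) had 15.4-, 5.45- and 5.55-fold.

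Of 42 known CREB1 targets, 4 (9.52%, median span 8504 bp) held a region, with 2.22% over all genes. At Mcl1, a survival gene of the BCL family, the summit lay 54 bp before an internal start (chr3:95658498-95659732; 6.22-, 11.5- and 6.72-fold). At Nr4a2, a nuclear receptor gene with a gene-end peak in all 4 libraries, the region was a second site (chr2:57117487-57117928; 4.68-, 7.34- and 4.90-fold). The others were Vgf, a neuropeptide precursor gene (7.76-, 12.9- and 4.91-fold), and Pde4d.

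Among genes of energy metabolism, regions of the set fell in 5 of 33 genes of glycolysis, glycogen and glucose uptake (15.2%), in 0 of 45 OXPHOS subunit genes and in 0 of 40 genes of the TCA cycle and fatty acid oxidation, while gene-end peaks in both CTRL libraries were present at 17, 33 and 30 of them. The median spans of these lists were 28586, 7510 and 24011 bp. Regions of the set fell in 2.22% of all genes, at which a list of 45 or 40 genes would hold about 1. A gene-end peak stood at 33.9% of all genes in CTRL replicate 1 and at 40.1% in CTRL replicate 2, each library counted alone. The glycolytic genes were Pfkm, muscle phosphofructokinase, with a summit 13 bp before an internal start (chr15:98108353-98109224; 3.24-, 9.79- and 3.18-fold), Pfkfb3 (5.33-, 12.7- and 3.19-fold), Pfkfb4 (10.1-, 10.3- and 4.66-fold), Eno3, muscle enolase (5.75-, 6.90- and 5.37-fold), and Tbc1d1. Pfkfb3 and Pfkfb4 encode enzymes that set the level of an activator of phosphofructokinase. Among mitochondrial biogenesis regulators 1 of 25 held a region, the transcription factor gene Yy1 (12.9-, 13.4- and 4.45-fold).

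Insulin and AKT signaling held regions in 4 of 29 genes (13.8%, median span 81773 bp), with 2.22% over all genes. Pdpk1 encodes the kinase that phosphorylates AKT, and its region (chr17:24141382-24142046) was among the 24 strongest, with 12.2-, 22.2- and 8.50-fold. The others were Akt2 (4.48-, 7.34- and 4.45-fold), the adaptor gene Grb10 and the kinase gene Sgk1. Pdpk1 and Akt2 also had gene-end peaks in all 4 libraries.

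Of genes of muscle atrophy and autophagy, 3 of 35 (8.57%, median span 24421 bp) held a region, with 2.22% over all genes. Fbxo32 encodes atrogin, a ubiquitin ligase subunit of wasting muscle, and its region (chr15:58203817-58204559) had 8.36-fold enrichment in CTRL replicate 1, 14.2-fold in CTRL replicate 2 and 3.49-fold in C26 replicate 1. It stood at the percentiles of 67.4 and 81.4 in the CTRL lists and at 7.71 in C26 replicate 1. Fbxl22, a muscle F-box gene, had 11.1-, 26.3- and 7.68-fold (chr9:66511426-66512744), and Tfeb, a regulator of lysosomal genes, had 3.21-, 8.68- and 4.90-fold. Of glucocorticoid, inflammation and stress genes, 5 of 44 (11.4%, median span 13567.5 bp) held a region. Klf15, a glucocorticoid target in muscle, had its summit 62 bp before an internal start and 14 bp from an arm (chr6:90462212-90463056; 9.47-, 12.2- and 6.75-fold). Nr3c1, the glucocorticoid receptor gene, had 8.11-, 19.2- and 6.53-fold, Zbtb16 8.25-, 5.74- and 5.17-fold, and Nfkb2 6.57-, 8.17- and 4.58-fold, and Stat5b also held one.

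Myogenic regulators held regions in 4 of 38 matched genes (10.5%, median span 72695.5 bp). The myostatin and TGF-beta pathway held them in 3 of 34 (8.82%, median span 68731.5 bp), with 2.22% over all genes. Mef2a, a factor of muscle gene expression, had a region among the stronger ones (chr7:67372710-67373685; 11.9-, 11.4- and 7.42-fold). Nfatc1, a calcineurin-dependent factor, held 2, the stronger with 14.0-, 16.6- and 8.27-fold, and Nfia and Sox6 held 1 each. The TGF-beta genes were the receptor gene Tgfbr1 (7.10-, 6.59- and 4.24-fold), the signal transducer gene Smad3 (7.45-, 4.88- and 4.45-fold) and the ubiquitin ligase gene Smurf1 (7.51-, 6.31- and 5.55-fold). Of contractile and synaptic genes, 1 of 53 sarcomere genes (1.89%, near the 2.22% over all genes) held a region, Myom2 (5.07-, 4.90- and 3.92-fold), and 0 of 21 neuromuscular junction genes did. The clock list had 1 of 24, Csnk1e, at an internal start (5.88-, 8.98- and 4.47-fold).

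Markers of other cells in muscle held regions in 1 of 64 genes (1.56%), near the 2.22% over all genes. Endothelial markers (16), fibroblast markers (16) and adipocyte and Schwann cell markers (12) held 0 regions of the set. Leukocyte markers had 1 of 20, Cd74, the invariant chain gene, with 2 regions (9.47-, 8.51- and 7.45-fold, and 8.19-, 5.45- and 9.44-fold). Gene-end peaks in both CTRL libraries stood at 20 of 53 sarcomere genes. They stood at 0, 0, 1 and 1 of the endothelial, fibroblast, leukocyte, and adipocyte and Schwann cell markers. Over all protein-coding genes, a gene-end peak stood at 33.9% in CTRL replicate 1 and at 40.1% in CTRL replicate 2, each library counted alone. Binding at a marker gene is not its expression, so this describes the peaks and not the makeup of the tissue.

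Gse1 held 3 regions, as did Pde4d. The Gse1 regions lie side by side, from base 120535692 to base 120539234 of chromosome 8. Whether they are separate sites was not tested.

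Ends of genes that are not protein-coding lay within 1000 bp of 116 regions (15.6%, 13.1 to 18.4), against 16.8% (14.1 to 19.8) of distal regions in all 4 libraries and 13.2% (11.4 to 15.1) in the CTRL libraries alone. Long non-coding RNA genes accounted for 94, and miRNA genes for 8, tRNA genes for 8, snRNA genes for 7 and snoRNA genes for 4, some regions being near more than 1 type. The 10 strongest lay near Gm6598 (in Tmem248), Gm33409 (in Pdpk1), Gm13421 and the snRNA gene Gm25541 (near Wdr5), Gm34755, Gm16104, A830035O19Rik, 5830448L01Rik, 1700012D01Rik, Gm36371 and Crnde. Crnde is a long non-coding RNA beside Irx5, and its region, 57 bp from the gene's end, had 13.2-, 20.2- and 6.36-fold (chr8:92355694-92356517). Chosen after their values were seen, Malat1, an abundant nuclear RNA, had a region 875 bp from an end (15.7-, 20.7- and 5.83-fold), and 2 well-known miRNA genes had one nearby. Their mature sequences from RefSeq are printed to identify them, with the seed (bases 2 to 8) in capitals.
mmu-miR-210-3p: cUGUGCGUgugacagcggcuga
mmu-let-7i-5p: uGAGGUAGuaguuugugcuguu
The miR-210 gene, induced by hypoxia, had the summit of its region 411 bp from an end (chr7:141221597-141222416; 8.83-, 14.7- and 5.30-fold), and the let-7i gene, of a family of differentiation miRNAs, had a summit 737 bp from an end (chr10:122985709-122986642; 5.25-, 7.23- and 3.41-fold).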

How the data were processed

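Per the labels, peaks were called for each library against 1 input of the same group at a q threshold of 0.05. The submitters' processing notes list MACS2 2.1.4, SAMtools 1.6, Picard, Bowtie2 2.3.5.1 and FastQC 0.11.2, with the build mm10 (GRCm38). The deposited lists give peak positions, the fold enrichment over input (a ratio), the −log10 q and p values and an integer score, as the authors' caller wrote them per library, not on pooled samples. Here peaks were merged (overlap of 1 bp, the same 17607 regions as bedtools 2.31.1) and tested on simulated data with known patterns. Gene spans, promoters and miRNAs came from RefSeq tables of GRCm38.p6, and regions on a chromosome without promoter sequences (27) were left out of motif shares. No sample column was left unused.

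The members and lists were chosen with earlier results of these data known. Named genes are the 24 strongest, genes with 3 or more regions, the 10 strongest near non-coding genes, list genes, and those at the limits; some of these are not reported here. No test was run, since presence chose the regions and regions are not replicates. Wilson intervals (95%) cover counting error only. Python 3.11.15, pandas 2.3.3 and SciPy 1.17.1 were used.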

Additional observations from a re-analysis of the deposited data

How the results depend on the processing

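Leaving out a library changes the rule itself. The number of regions then ran from 883 to 2011, the share inside a protein-coding gene span from 65.5% to 67.2%, the share near a non-coding gene end from 13.6% to 16.2%, the median percentile in C26 replicate 1 from 31.8 to 48.6, and the arm share at coding starts from 35.9% to 55.4%. The count without C26 replicate 1 was 2011, and without C26 replicate 2 it was 1417. For regions in all libraries used, the arm share ran from 62.0% to 65.6% as long as C26 replicate 2 was kept. Without C26 replicate 2 the set is itself the regions in all libraries used, and the share was 55.4% (185 of 334). With every list cut to the shortest, the count was 128, the gene span share 78.1%, the median percentile 67.9, and the arm shares 58.8% (30 of 51) and 76.8% (86 of 112). With ends of genes of every type, the gene span share was 72.4% and the non-coding share 0% by construction. Another overlap, joining distance, gene-end window or q threshold kept the count between 618 and 891, every share within its Wilson interval, and the median percentile within its 95% interval (35.5 to 40.6, from order statistics). The settings for the arm shares were chosen after seeing the data. No median percentile exists without C26 replicate 1. No paired analysis was possible because the results come from no test. Unknown depth limits what a missing peak can show.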

Other observations

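In a few regions a C26 replicate 2 peak lay close by without touching the region. Chosen after their values were seen, these included Nr4a2, where the gap was 424 bp, and Klf15, where it was 451 bp. At Sgk1 the gap was 1396 bp, at Yy1 1022 bp, at the stronger Cd74 region 2531 bp and at the other Cd74 region 1072 bp. Whether that peak and the region share a site was not tested.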
